A study of Mus musculus with 24 samples.

Results

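The genes described here code for ligands, antagonists, receptors and feedback regulators of the BMP, Nodal and TGF-beta family, and they were followed in mouse embryonic stem cells (ESCs) before and after PRC1 was removed or made catalytically inactive. They were chosen by name, as 46 gene symbols of the 19409 symbols in the expression table, and where a symbol had several rows the row with the largest summed value was used, which concerned *Bmpr1b* alone (3 rows). By role there were 22 ligands or ligand subunits, 9 antagonists, 9 receptors and 6 feedback genes (*Id1* to *Id4*, *Smad6* and *Smad7*). Of the 46 genes, 45 had a row and 43 had enough reads to be tested (at least 10 reads in at least 3 of the 12 libraries). *Bmp5* and *Cer1* had too few reads, and *Nodal* was not analysed here.

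Polycomb repressive complex 1 (PRC1) places ubiquitin on histone H2A through its RING1A or RING1B subunit, and is known for keeping developmental genes silent in ESCs. In PRC1CKO cells (clone B9) both Ring1a alleles are lost (Ring1a-/-), both Ring1b alleles are floxed (Ring1bfl/fl), and Cre, as ERT2-Cre expressed from Rosa26, removes the remaining RING1B once 4-hydroxytamoxifen (OHT) is added. In PRC1CPM cells (clone 41, also with Rosa26::ERT2-Cre) the Ring1a alleles carry I50A and D53K from the start, and OHT switches the Ring1b alleles from wild type to I53A and D56K, which keeps the complex but not its activity. Each of the 2 lines, both of strain E14 and each a single clone, was taken untreated (UNT) and after 72 h with 800 nM OHT, in 3 replicates, which gives 12 libraries of total RNA in 4 conditions. The untreated PRC1CKO cells therefore already lack RING1A, and the untreated PRC1CPM cells already carry mutant RING1A, so neither line is wild type before OHT. Since each genotype is 1 clone, a difference between the lines cannot be told apart from a difference between clones. These libraries hold no OHT-treated cells whose Ring1b stays unchanged. Effects of OHT or of active Cre therefore cannot be told apart from those of losing or inactivating PRC1.

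Ligands of this family act as dimers that bring together type I and type II receptor kinases at the cell surface. BMP ligands mainly lead to phosphorylation of SMAD1, SMAD5 and SMAD9, whereas Nodal, activins and TGF-beta ligands lead to phosphorylation of SMAD2 and SMAD3, and both branches share SMAD4. Secreted antagonists such as noggin, chordin, gremlin and follistatin bind the ligands, and LEFTY proteins block Nodal signalling. In mouse ESCs grown with serum, BMP signalling is known for switching on Id genes, and Nodal signalling for switching on *Lefty1* and *Lefty2*.

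Expression was measured by calibrated RNA-seq (cRNA-seq), in which a fixed number of Drosophila cells was mixed with the ESCs so that values are relative to cell number. The unit is the normalised read count, that is, reads over the whole gene body divided by a size factor for each library. Reads on genes numbered from 14668159 in the shallowest library to 27016156 in the deepest. Summed over all genes, the normalised read counts came to 24958331, 17618069 and 17755844 in untreated PRC1CKO replicates 1 to 3, 22092158, 19476946 and 20939764 in OHT-treated PRC1CKO, 24373383, 19075822 and 19883420 in untreated PRC1CPM, and 26077686, 17909909 and 21836456 in OHT-treated PRC1CPM. The library of replicate 1 was thus the highest in each condition, and results that rest on a single library are given with and without it. In this bulk RNA, fewer cells of a type and less RNA per cell cannot be told apart.

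Neither targeted gene checks the labels. *Rnf2*, which codes for RING1B, read 1756, 1436 and 1385 in the untreated and 1489, 1565 and 1585 in the OHT-treated PRC1CKO libraries. Only its first coding exon is deleted, and reads are counted over the whole gene. *Ring1*, which codes for RING1A, read 313, 204 and 166 in the untreated and 281, 251 and 229 in the OHT-treated PRC1CKO libraries and 179, 182 and 125 in the untreated and 161, 111 and 148 in the OHT-treated PRC1CPM libraries. The PRC1CKO alleles of this gene lack exons 1 to 3, so reads of the rest of the gene remain, and these totals over the gene body cannot tell whether the deleted part is absent. The ESC marker *Pou5f1* was present in all 12 libraries and ranged from 2497 to 6225 normalised reads. Summed over the 7 ESC markers with a row, of which *Tdgf1* was the most abundant, the level lay between 37170 and 84310 in every library, and *Sox2* was the single marker that fell (in PRC1CKO, log2 fold change -0.89, adjusted p = 0.00051).

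Promoters are shown because PRC1 is known to gather at those rich in CG dinucleotides. Of the genes with a promoter sequence at hand, those with the largest rises were taken, together with *Id2* and *Inhbb*. The mean changes of *Id2* and *Inhbb* had opposite signs in the lines, a difference that passed only with the replicate number as a block. RefSeq sequences (build GRCm38.p6) were at hand for 30 of the 46 genes, and for 27 of them the annotated start lay within 500 bases of the start in the expression table. *Gdf6*, *Bmpr1b*, *Bmp3* and *Bmp2*, whose rises in PRC1CKO were as large as or larger than that of *Bmper*, are not among these 27. In these 27 promoters, read over 300 bases from 250 before to 50 after the start, the number of CG dinucleotides had a median of 27.0 and ranged from 4 (*Bmp5*) to 54 (*Acvr2a*), whereas all 27025 genes with such a window had a median of 7.0 with quartiles of 3.0 and 21.0. The 14 called higher after OHT in at least 1 line had a median of 26.5 and the other 13 a median of 27.0. The 14 include *Gdf10* (42 CG) and *Grem1* (28), which passed the limit on reads only through treated libraries. The other 13 include *Bmp5* (4) and *Cer1* (6), which were not tested. The split is thus a description, from which nothing is concluded. The 250 bases before the start are printed 5′ to 3′ with each CG in capitals.
Gdf10: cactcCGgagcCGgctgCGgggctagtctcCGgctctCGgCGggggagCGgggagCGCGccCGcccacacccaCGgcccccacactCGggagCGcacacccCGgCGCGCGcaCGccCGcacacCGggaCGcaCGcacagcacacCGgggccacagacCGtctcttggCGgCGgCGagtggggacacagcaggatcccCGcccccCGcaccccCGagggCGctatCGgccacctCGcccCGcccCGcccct
Gdf7: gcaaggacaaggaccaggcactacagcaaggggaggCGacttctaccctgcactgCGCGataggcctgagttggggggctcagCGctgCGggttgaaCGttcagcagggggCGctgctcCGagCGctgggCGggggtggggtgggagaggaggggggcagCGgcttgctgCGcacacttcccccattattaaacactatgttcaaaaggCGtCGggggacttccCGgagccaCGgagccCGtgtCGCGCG
Bmper: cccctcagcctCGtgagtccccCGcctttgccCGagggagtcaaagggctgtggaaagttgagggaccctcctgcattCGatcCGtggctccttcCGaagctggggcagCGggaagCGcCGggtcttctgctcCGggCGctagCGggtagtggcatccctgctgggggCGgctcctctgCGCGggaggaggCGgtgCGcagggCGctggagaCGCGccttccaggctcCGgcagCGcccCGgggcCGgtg
Bmp6: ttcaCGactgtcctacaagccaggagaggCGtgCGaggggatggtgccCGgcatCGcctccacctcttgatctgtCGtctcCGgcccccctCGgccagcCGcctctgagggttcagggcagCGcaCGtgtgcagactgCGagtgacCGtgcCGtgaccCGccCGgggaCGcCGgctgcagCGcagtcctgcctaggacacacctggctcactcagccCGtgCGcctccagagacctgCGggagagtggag
Id2: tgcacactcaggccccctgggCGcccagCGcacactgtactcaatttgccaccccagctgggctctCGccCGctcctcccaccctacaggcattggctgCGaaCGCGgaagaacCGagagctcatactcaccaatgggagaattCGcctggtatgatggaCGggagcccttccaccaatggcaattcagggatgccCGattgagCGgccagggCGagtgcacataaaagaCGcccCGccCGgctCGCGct
Inhbb: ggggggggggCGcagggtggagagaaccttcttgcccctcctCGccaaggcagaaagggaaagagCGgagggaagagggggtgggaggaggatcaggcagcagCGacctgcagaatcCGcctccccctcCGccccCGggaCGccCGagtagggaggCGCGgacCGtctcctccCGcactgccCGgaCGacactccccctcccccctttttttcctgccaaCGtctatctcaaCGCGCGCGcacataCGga
These lie at chr14:33923337-33923586, plus strand (*Gdf10*, with 35 CG in the stretch shown), chr12:8301955-8302204, minus strand (*Gdf7*, 20), chr9:23222826-23223075, plus strand (*Bmper*, 24), chr13:38345466-38345715, plus strand (*Bmp6*, 22), chr12:25096093-25096342, minus strand (*Id2*, 18) and chr1:119422249-119422498, minus strand (*Inhbb*, 21). The letters GGCGCC, a GC-rich element that BMP-activated SMAD proteins are known to bind and that reads the same on both strands, were in 8 of the 27 promoters (29.6%) and in 3233 of the 27025 promoters of all genes (12%). Those 8 were the promoters of *Id2*, *Id4*, *Gdf10*, *Grem1*, *Chrd*, *Bmpr1a*, *Bmpr2* and *Tgfbr1*. Such a match is a description of the sequence and not a binding site.

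The genes differed greatly in level. Per kb of gene body, averaged over all 12 libraries, treated ones included, *Lefty1* (838 normalised reads per kb) and *Lefty2* (666) stood above all others, followed by *Id1* (281), *Id3* (249), *Gdf3* (244), *Id2* (228), *Smad7* (204), *Inhbb* (129.8), *Bmp4* (78.9) and *Nog* (56.2). The order below the top pair depended on the condition. In untreated PRC1CKO *Id3* (194) lay below *Id2* (241), *Gdf3* (235), *Inhbb* (219) and *Smad7* (202), and in untreated PRC1CPM *Gdf3* (371) lay above *Id1* (223) and *Id3* (204). At the other end lay *Bmper* (0.628), *Bmp3* (0.308), *Cer1* (0.0313) and *Bmp5* (0.0142). *Cer1*, a Nodal and BMP antagonist of anterior endoderm, had 1 read in 1 untreated PRC1CPM library and 0 in the other 11. The most abundant genes per kb were thus feedback genes, *Lefty1*, *Lefty2*, *Nog* and the ligands *Gdf3*, *Inhbb* and *Bmp4*. The ligands and receptors that moved most after OHT were low per kb. Not divided by length, *Bmp6* and *Bmpr1b*, which have long gene bodies, averaged 941 and 968 normalised reads in OHT-treated PRC1CKO, against 314 for *Id1*. Because total RNA was counted over gene bodies, long introns lower the value per kb, and this holds most for *Bmper* and *Bmpr1b*.

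**Figure D1:**
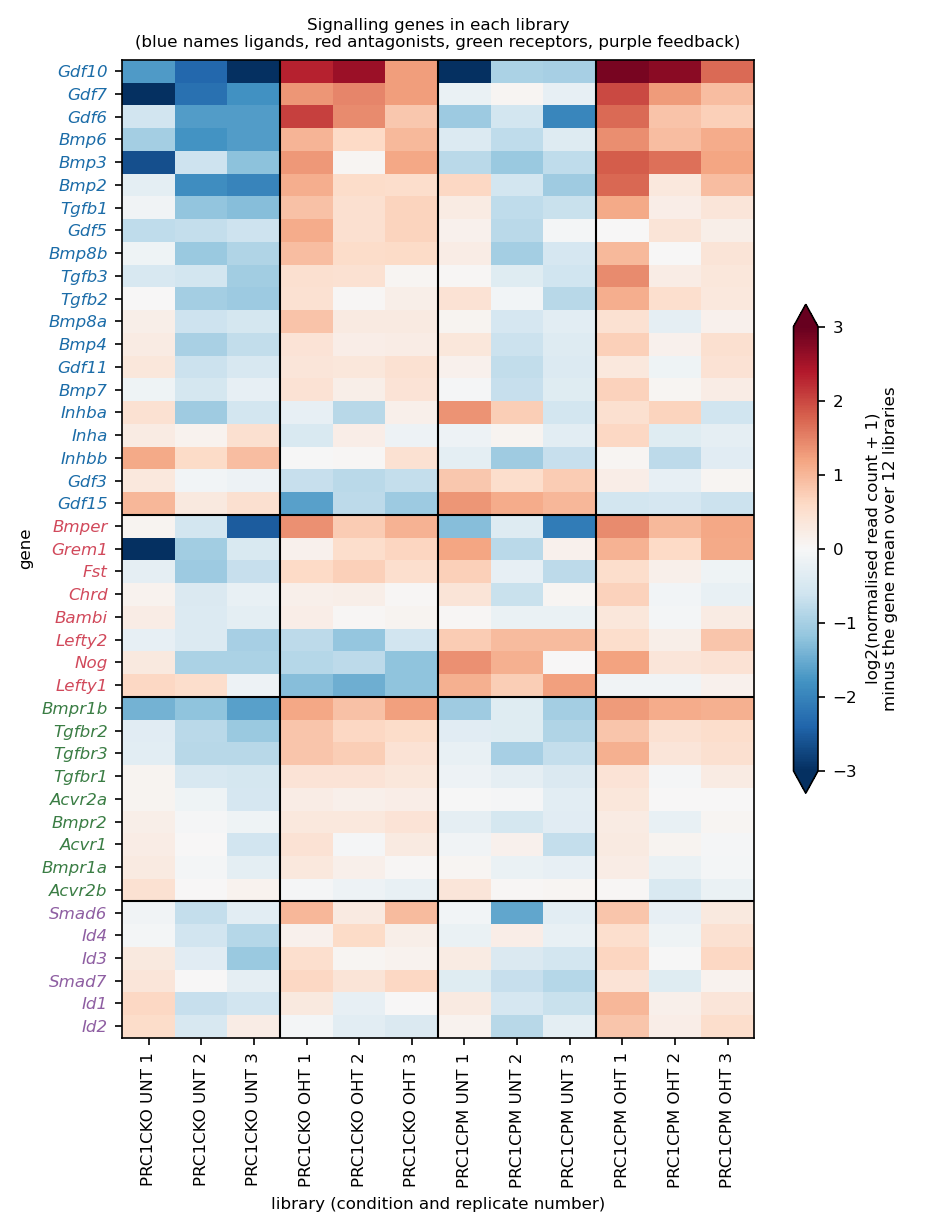
Heat map of the 43 tested genes (rows, grouped by role and ordered by the change in PRC1CKO) in the 12 libraries (columns, 3 replicates of each condition). Colour gives log2(normalised read count + 1) minus the gene's mean over the libraries, with the scale ending at 3 either way. The OHT-treated libraries of both lines are high for *Gdf10*, *Gdf6*, *Bmp6* and *Bmpr1b*, *Lefty1* and *Gdf15* are lower there than in the untreated libraries of the same line, and *Lefty2* and *Nog* follow the line more than the treatment.

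After OHT, 20 of the 43 tested genes rose in PRC1CKO cells, which lose PRC1, and 4 fell (limma, adjusted p under 0.05 and fold change above 1.5). That is 46.5% higher and 9.3% lower, beside 16.5% higher and 3.09% lower among all 16940 transcripts tested. In PRC1CPM cells, where PRC1 loses its activity, 16 genes rose (37.2%) and 3 fell (6.98%), beside 13.1% and 1.4% of all transcripts. The median log2 fold change of the 43 genes was 0.69 in PRC1CKO and 0.66 in PRC1CPM, against 0.12 and 0.10 for all transcripts. Of the 43, 14 rose in both lines and 3 fell in both. The share of all transcripts called in both lines was not counted, so these numbers have no background beside them. The 20 genes that rose in PRC1CKO all had a positive change in PRC1CPM, 6 of them without passing the test there. Both comparisons are descriptions of a list that was picked by name, with earlier results of these libraries known. *Bmp3*, *Gdf5*, *Gdf10* and *Grem1* passed the limit on reads only through their OHT-treated libraries. The counts of rises and the medians of the 43 genes therefore include genes that had to be higher there. The 14 that rose in both lines include *Bmp3* and *Gdf10*, and the 20 that rose in PRC1CKO include these and *Grem1*. Without these 4, 17 of 39 genes were higher (43.6%) and 4 lower (10.3%) in PRC1CKO, and 14 (35.9%) and 3 (7.69%) in PRC1CPM, beside 14.9%, 3.25%, 11.7% and 1.48% of the 16007 transcripts that pass the limit on untreated libraries alone. With the replicate number as a block, 21 of the 43 were higher and 3 lower in PRC1CPM, beside 17.9% and 2.72% of all transcripts. The count in PRC1CPM leaned on single libraries. It was 7 without OHT-treated replicate 1 and 9 without untreated replicate 3 of that line, beside 8.49% and 9.3% of all transcripts higher. Over all 12 such fits it ranged from 7 to 20, whereas in PRC1CKO it lay between 14 and 23. The fits with 20, 14 and 23 had 14.9%, 12.4% and 22.0% of all transcripts higher. Whether treated and untreated libraries overlapped is given below for single genes. Of all transcripts, 22.1% in PRC1CKO and 18.7% in PRC1CPM had every treated library above every untreated one. A further 8.52% and 3.7% had every treated library below.

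The counts differed by role. In PRC1CKO, 12 of 20 tested ligands rose and 3 fell, 3 of 8 antagonists rose and 1 fell, 4 of 9 receptors rose and none fell, and 1 of 6 feedback genes rose. In PRC1CPM, the counts were 9 and 2 for the ligands, 1 and 1 for the antagonists, 3 and 0 for the receptors, and 3 and 0 for the feedback genes. These counts include *Bmp3*, *Gdf10* and *Grem1* among the genes higher in PRC1CKO and *Bmp3* and *Gdf10* among those higher in PRC1CPM. Over the genes that pass the limit on untreated libraries alone, 10 of 17 ligands and 2 of 7 antagonists were higher in PRC1CKO and 7 of 17 and 1 of 7 in PRC1CPM, and the receptors and feedback genes were as before. With the replicate block the tested ligands and feedback genes that were higher numbered 14 and 3 in PRC1CKO and 12 and 5 in PRC1CPM, beside 20.3% and 17.9% of all transcripts. The medians over all tested genes of a role in PRC1CKO were 0.97 for ligands, 0.28 for antagonists, 0.38 for receptors and 0.56 for feedback genes. In PRC1CPM they were 0.74, 0.24, 0.40 and 0.74. The medians of the ligands include *Bmp3*, *Gdf5* and *Gdf10* and those of the antagonists *Grem1*, so no order of the roles is read from them. Differences between the roles were not tested, since each role holds few genes.

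**Figure D2:**
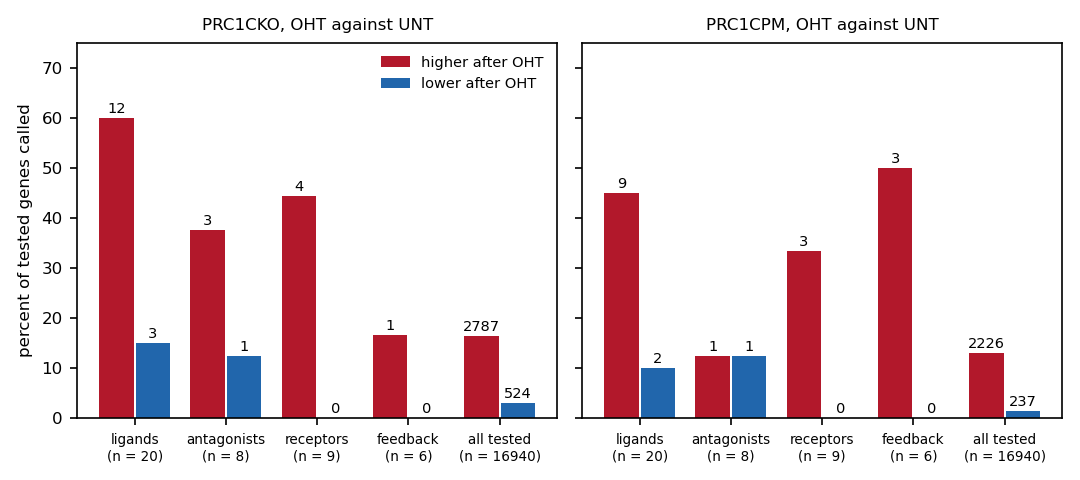
Bars give the percent of tested genes that passed the test after OHT (red higher, blue lower) for each role and for all 16940 transcripts tested, in PRC1CKO (left) and PRC1CPM (right); the number over each bar is the number of genes. Ligands reach 60.0% higher in PRC1CKO and 45.0% in PRC1CPM, beside 16.5% and 13.1% of all transcripts, and both include *Bmp3* and *Gdf10*, which passed the limit on reads only through treated libraries (58.8% and 41.2% over the 17 ligands that pass without them).

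Among the ligands, the widest gap was that of *Gdf10*, a ligand close in sequence to *Bmp3*. *Gdf10* read 2.98, 1.54 and 0 in the untreated and 63.3, 75.9 and 29.7 in the OHT-treated PRC1CKO libraries, on 4 reads in all before and 186 after. In the other line it read 0, 5.65 and 5.42 in the untreated and 91.7, 82.7 and 40.5 in the OHT-treated PRC1CPM libraries, on 10 and 239 reads. All 6 OHT-treated libraries lay above all 6 untreated ones. The log2 fold changes, on the scale of log2(normalised read count + 1) as all those that follow, were 4.62 ± 0.63 (SE, n = 3 per condition) in PRC1CKO and 4.29 ± 0.63 in PRC1CPM. They are given as a description with no test, since *Gdf10* passed the limit on reads only through its treated libraries. Their size depended on the setting, from 4.50 to 6.04 in PRC1CKO and 4.12 to 5.52 in PRC1CPM with the highest values at a pseudocount of 0.1, and the PRC1CPM value was 3.39 without untreated replicate 1 of that line. *Gdf7*, known as a roof plate signal of the dorsal neural tube, read 1.49, 6.16 and 8.46 in the untreated and 82.3, 91.6 and 78.5 in the OHT-treated PRC1CKO libraries. It read 28.1, 33.9 and 27.1 in the untreated and 131, 79.6 and 62.4 in the OHT-treated PRC1CPM libraries. The treated levels overlapped between the lines while the untreated ones did not, and the rises were 3.94 ± 0.45 (adjusted p = 7.96e-10) and 1.52 ± 0.45 (adjusted p = 0.0143). The body of *Gdf7* lies to 71.7% within Ldah, and whether the authors' counting used the strand is not given in the sources used here. *Gdf6*, a related ligand of the eye and joints, read 37.2, 16.9 and 16.9 in the untreated and 233, 152 and 99.5 in the OHT-treated PRC1CKO libraries and 25.6, 37.7 and 13.6 in the untreated and 183, 102 and 92.0 in the OHT-treated PRC1CPM libraries. It was higher in every treated library than in every untreated one, by 2.73 ± 0.41 (adjusted p = 6.31e-07) and 2.29 ± 0.41 (adjusted p = 3.48e-05). The rise of *Gdf7* in PRC1CPM lost its call without OHT-treated replicate 1 or untreated replicate 3 of that line, and ranged from 1.23 to 1.76 over the 12 fits that leave out 1 library.

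Of the BMP ligands proper, *Bmp6* rose most firmly. It read 250.2, 146 and 159.8 in the untreated and 1042, 777 and 1003 in the OHT-treated PRC1CKO libraries. In PRC1CPM it started higher, at 386, 301 and 388, and reached 1339, 973 and 1112. Treated and untreated libraries did not overlap in either line, and the changes were 2.37 ± 0.25 (adjusted p = 9.86e-11) and 1.67 ± 0.25 (adjusted p = 1.35e-06). *Bmp2*, which with *Bmp4* drives mesoderm and extraembryonic fates, read 56.6, 18.5 and 16.9 in the untreated and 148.2, 101.8 and 101.2 in the OHT-treated PRC1CKO libraries and 107, 47.1 and 32.5 in the untreated and 234, 86.6 and 134 in the OHT-treated PRC1CPM libraries. The conditions were apart in PRC1CKO (2.10 ± 0.42, adjusted p = 0.000105) and overlapped in PRC1CPM, where untreated replicate 1 was above treated replicate 2 (1.33 ± 0.42, adjusted p = 0.0222). *Bmp4*, the most abundant BMP ligand per kb here, read 627, 267 and 313 in the untreated and 695, 602 and 618 in the OHT-treated PRC1CKO libraries and 666, 338 and 401 in the untreated and 858, 579.9 and 737 in the OHT-treated PRC1CPM libraries. Untreated replicate 1 of PRC1CKO lay among its treated libraries, and the change was 0.77 ± 0.27 (adjusted p = 0.0394) in PRC1CKO and 0.67 ± 0.27 (adjusted p = 0.1, and 0.000111 with the replicate number as a block) in PRC1CPM. *Bmp3*, a poorly expressed ligand that opposes other BMPs, read 0, 3.08 and 1.69 in the untreated and 14.5, 5.55 and 13.1 in the OHT-treated PRC1CKO libraries and 2.56, 1.89 and 2.71 in the untreated and 21.2, 18.6 and 13.1 in the OHT-treated PRC1CPM libraries. Its differences were 2.34 ± 0.69 and 2.44 ± 0.69, on 6 reads in each untreated condition, and for the same reason as for *Gdf10* they are a description with no test. With a pseudocount of 0.1 the first was 3.63. Without 1 library, *Bmp2* in PRC1CPM lost its call in 2 fits (without OHT-treated replicate 1 or untreated replicate 3, range 0.96 to 1.80) and *Bmp4* in PRC1CKO in 5 (each library of that line other than untreated replicate 1, 0.52 to 1.14). The call of *Bmp4* was also lost under DESeq2, under edgeR, without the gDNA-seq correction, without a filter and with a pseudocount of 0.1 (adjusted p up to 0.157), and that of *Bmp2* in PRC1CPM under DESeq2 and without a filter.

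The rises of *Bmp7*, *Bmp8a* and *Bmp8b* were smaller. *Bmp7*, a ligand of kidney and eye development, read 861, 657 and 796 in the untreated and 1280, 1059 and 1264 in the OHT-treated PRC1CKO libraries and 914, 588 and 731 in the untreated and 1529, 982 and 1098 in the OHT-treated PRC1CPM libraries. The treated libraries lay above the untreated ones in both lines, by 0.64 ± 0.23 (adjusted p = 0.0425) and 0.69 ± 0.23 (adjusted p = 0.0351). *Bmp8b*, needed for germ cell formation, read 422, 212 and 247 in the untreated and 886, 678 and 686 in the OHT-treated PRC1CKO libraries and 542, 227 and 328 in the untreated and 908, 468 and 607 in the OHT-treated PRC1CPM libraries. It rose by 1.40 ± 0.29 (adjusted p = 0.000129) with no overlap in PRC1CKO, and by 0.89 ± 0.29 (adjusted p = 0.0246) in PRC1CPM, where untreated replicate 1 lay above treated replicate 2. Its neighbour and near copy *Bmp8a* read 237, 137 and 145 in the untreated and 379, 256 and 256 in the OHT-treated PRC1CKO libraries and 222, 147 and 169 in the untreated and 292, 175 and 230.0 in the OHT-treated PRC1CPM libraries. Only PRC1CKO passed the test for *Bmp8a* (0.80 ± 0.30, adjusted p = 0.0498), against 0.36 ± 0.30 (adjusted p = 0.586) in PRC1CPM. Since only uniquely aligned reads were kept, reads of stretches that *Bmp8a* and *Bmp8b* share may be missing from both. These calls were less steady than those above: *Bmp7* lost its call in PRC1CKO in 7 of the 12 fits that leave out 1 library (range 0.53 to 0.73) and in PRC1CPM in 5 (0.50 to 0.85), *Bmp8a* in PRC1CKO in 7 (0.61 to 1.04), and *Bmp8b* in PRC1CPM in 3, without OHT-treated replicate 1 or untreated replicate 2 or 3 of that line (0.59 to 1.22). For *Bmp7* and *Bmp8a* in PRC1CKO these were each library of that line other than untreated replicate 1, and untreated and OHT-treated replicate 3 of PRC1CPM. For *Bmp7* in PRC1CPM they were untreated replicates 2 and 3 and OHT-treated replicates 1 and 3 of that line, and OHT-treated replicate 3 of PRC1CKO. *Bmp8a* also lost its call under edgeR, without the gDNA-seq correction, without a filter and with a pseudocount of 0.1 (adjusted p up to 0.206), *Bmp7* under TMM in both lines, without the gDNA-seq correction in PRC1CKO and with the 6 libraries alone in PRC1CPM, and *Bmp8b* in PRC1CPM under DESeq2 and without a filter.

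Of the TGF-beta ligands, *Tgfb1* rose in both lines. It read 337, 159 and 149.7 in the untreated and 668, 507 and 571 in the OHT-treated PRC1CKO libraries and 431, 214 and 228 in the untreated and 792, 418 and 467 in the OHT-treated PRC1CPM libraries. Every treated PRC1CKO library was above every untreated one (1.53 ± 0.30, adjusted p = 6.33e-05), and in PRC1CPM untreated replicate 1 was above treated replicate 2 (0.96 ± 0.30, adjusted p = 0.0189). *Tgfb2* read 538, 259 and 249 in the untreated and 724, 543 and 598 in the OHT-treated PRC1CKO libraries and 717, 501 and 298 in the untreated and 1122, 746 and 659 in the OHT-treated PRC1CPM libraries. It rose by 0.92 ± 0.28 (adjusted p = 0.0143) in PRC1CKO. In PRC1CPM the change was 0.79 ± 0.28, with an adjusted p of 0.0531, or 3.86e-06 with the replicate block. *Tgfb3* did not pass the test in either line (1.02 ± 0.40 and 0.98 ± 0.40, adjusted p = 0.0618 and 0.0968), though all its treated libraries lay above the untreated ones of their line, and with the block it passed in PRC1CPM (adjusted p = 0.00656). The call of *Tgfb1* in PRC1CPM was lost without OHT-treated replicate 1 or untreated replicate 2 or 3 of that line (range 0.68 to 1.28), and that of *Tgfb2* in PRC1CKO without OHT-treated replicate 1 or untreated replicate 2 or 3 of that line (0.72 to 1.28). The first was also lost without a filter and the second without the gDNA-seq correction.

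Against this run of rises stood *Gdf15*, *Gdf3* and *Inhbb*. *Gdf15*, a stress-induced cytokine of the family, read 161, 100 and 113 in the untreated and 25.3, 46.3 and 37.5 in the OHT-treated PRC1CKO libraries, and 205, 175 and 163 in the untreated and 55.0, 56.4 and 51.5 in the OHT-treated PRC1CPM libraries. It fell by 1.76 ± 0.35 on the log2 scale in PRC1CKO (adjusted p = 7.42e-05) and by 1.71 ± 0.35 in PRC1CPM (adjusted p = 0.000187), with no overlap in either line. *Gdf3*, a ligand that acts through the Nodal branch and marks ESCs, read 1330, 1008 and 950.4 in the untreated and 663, 608 and 651 in the OHT-treated PRC1CKO libraries and 1872, 1533 and 1793 in the untreated and 1221, 905 and 1117 in the OHT-treated PRC1CPM libraries. All treated libraries lay below the untreated ones of their line, by 0.76 ± 0.22 (adjusted p = 0.00898) and 0.69 ± 0.22 (adjusted p = 0.0265), and the PRC1CPM call was lost without untreated replicate 1 or 3 or OHT-treated replicate 2 or 3 of that line (range -0.78 to -0.56), without the gDNA-seq correction and with the 6 libraries alone. *Inhbb*, the beta B subunit shared by activins and inhibins, read 1750, 1188 and 1516 in the untreated and 786, 812 and 1085 in the OHT-treated PRC1CKO libraries, and 647, 377 and 489 in the untreated and 828, 458 and 631 in the OHT-treated PRC1CPM libraries. It fell in PRC1CKO (-0.73 ± 0.25, adjusted p = 0.0289) and gave 0.33 ± 0.25 (adjusted p = 0.513) in PRC1CPM, where the conditions overlapped. The fall in PRC1CKO lost its call without untreated replicate 1 or 3 or OHT-treated replicate 1 or 2 of that line (range -0.88 to -0.60). The other tested ligands, *Gdf5*, *Gdf11*, *Inha* and *Inhba*, passed the test in neither line, with log2 fold changes between -0.42 (*Inha*) and 1.45 (*Gdf5*) in PRC1CKO and between -0.33 (*Inhba*) and 0.54 (*Gdf11*) in PRC1CPM. The body of *Inhba* lies to 70.3% within the pseudogene B230303A05Rik, so its reads are uncertain.

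**Figure D3:**
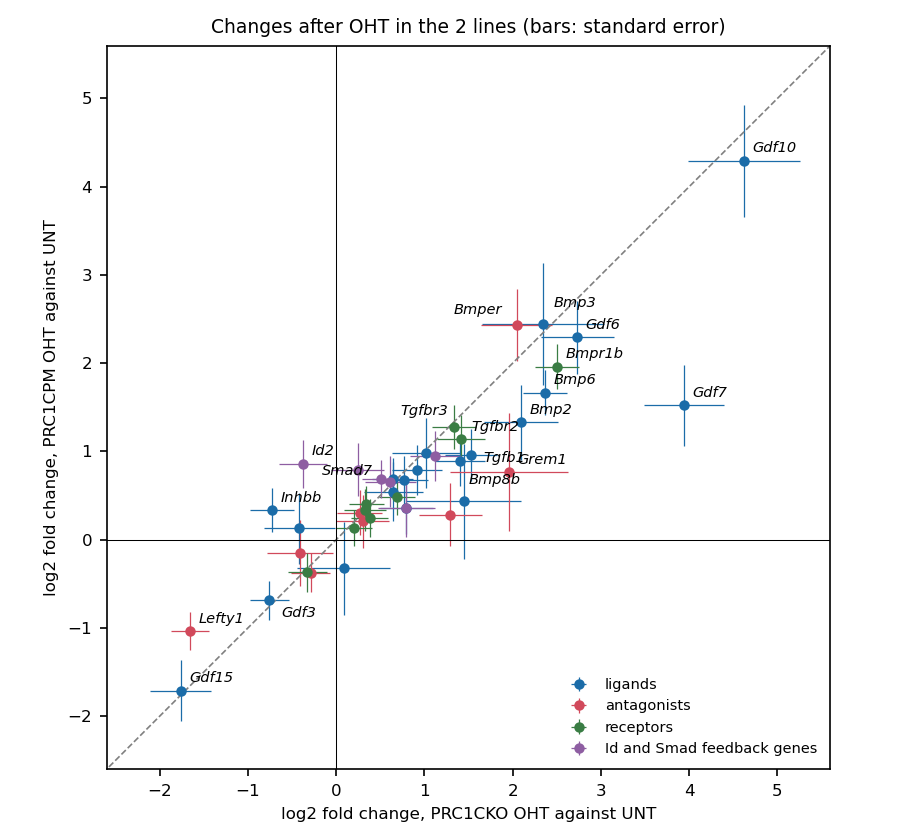
Log2 fold change after OHT in PRC1CKO (horizontal) and PRC1CPM (vertical) for the 43 tested genes, coloured by role, with standard errors as bars and the line of equal change dashed. Most genes lie near that line, *Gdf7* lies below it (3.94 against 1.52), and *Id2* and *Inhbb* lie in the upper left, with a negative change in PRC1CKO and a positive one in PRC1CPM.

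The antagonists split. *Bmper*, a secreted regulator of BMP activity, read 127, 80.8 and 20.3 in the untreated and 309, 202 and 247 in the OHT-treated PRC1CKO libraries and 48.6, 91.4 and 27.1 in the untreated and 322, 234 and 267 in the OHT-treated PRC1CPM libraries. It rose by 2.04 ± 0.40 (adjusted p = 8.46e-05) and 2.43 ± 0.40 (adjusted p = 8e-06), and treated libraries lay above untreated ones throughout. The rise in PRC1CKO was 1.29 without untreated replicate 3 of that line. *Fst*, which binds activins, read 77.5, 43.1 and 57.5 in the untreated and 143, 154 and 133 in the OHT-treated PRC1CKO libraries and 153, 79.2 and 54.2 in the untreated and 135, 104 and 85.4 in the OHT-treated PRC1CPM libraries. It rose in PRC1CKO (1.29 ± 0.36, adjusted p = 0.00505), whereas in PRC1CPM the conditions overlapped (0.28 ± 0.36, adjusted p = 0.772). *Grem1*, which binds BMP ligands, was close to the limit of detection, at 0, 3.08 and 5.07 in the untreated and 8.13, 11.1 and 12.2 in the OHT-treated PRC1CKO libraries and 17.9, 3.77 and 8.13 in the untreated and 16.4, 11.6 and 17.5 in the OHT-treated PRC1CPM libraries. Its differences of 1.96 ± 0.67 in PRC1CKO, on 10 and 35 reads, and 0.77 ± 0.67 in PRC1CPM are a description with no test, since *Grem1* too passed the limit on reads only through treated libraries. The PRC1CKO value was 3.14 with a pseudocount of 0.1 and 1.19 without untreated replicate 1 of that line. The body of *Fst* overlaps the noncoding Gm41074 over 36.6% of its length.

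*Lefty1* fell in both lines. It read 3679, 3471 and 2143 in the untreated and 983, 866 and 1028 in the OHT-treated PRC1CKO libraries, and in the other line 4987, 4004 and 5594 before and 2229, 2213 and 2623 after. No treated library overlapped an untreated one of its line, and the falls were 1.65 ± 0.22 (adjusted p = 1.95e-08) and 1.04 ± 0.22 (adjusted p = 0.000285) on the log2 scale, which are 3.15-fold and 2.05-fold. *Lefty2* read 2920, 2647 and 1737 in the untreated and 2021, 1549 and 2347 in the OHT-treated PRC1CKO libraries and 5907, 6698 and 6776 in the untreated and 5053, 3919 and 6224 in the OHT-treated PRC1CPM libraries. It passed the test in neither line (-0.29 ± 0.22 and -0.37 ± 0.22, adjusted p = 0.439 and 0.333). In untreated cells *Lefty1* was the more abundant of these neighbouring Nodal antagonists per kb (921 against 407 in PRC1CKO), and in OHT-treated cells *Lefty2* was (330 against 285), although the difference between the genes was not tested. The Lefty genes share much of their sequence, only uniquely aligned reads were kept, and 79.1% of the body of *Lefty1* overlaps the noncoding Gm39715. *Nog*, *Chrd* and *Bambi*, which codes for a pseudoreceptor, passed in neither line, with log2 fold changes of -0.41, 0.30 and 0.27 in PRC1CKO and -0.15, 0.21 and 0.31 in PRC1CPM.

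Of the receptors, *Bmpr1b* changed most. This type I BMP receptor read 169.8, 196 and 145 in the untreated and 1014, 829 and 1062 in the OHT-treated PRC1CKO libraries and 216, 354 and 225 in the untreated and 1103, 980.4 and 951 in the OHT-treated PRC1CPM libraries. Each line showed a clear gap between conditions, of 2.50 ± 0.25 (adjusted p = 2.12e-11) and 1.96 ± 0.25 (adjusted p = 3.8e-08). The other type I BMP receptor, *Bmpr1a*, was far more abundant per kb (45.0 against 1.82) and gave 0.20 ± 0.20 and 0.13 ± 0.20 (adjusted p = 0.595 and 0.834). *Tgfbr2*, the type II TGF-beta receptor, read 253, 183 and 148 in the untreated and 572, 488 and 471 in the OHT-treated PRC1CKO libraries and 253, 249 and 169 in the untreated and 573, 437 and 460.1 in the OHT-treated PRC1CPM libraries. It rose by 1.42 ± 0.27 (adjusted p = 4.54e-05) and 1.14 ± 0.27 (adjusted p = 0.00142), with no overlap between conditions. *Tgfbr3*, the co-receptor betaglycan, read 542, 383 and 379 in the untreated and 1219, 1137 and 921 in the OHT-treated PRC1CKO libraries and 579, 343 and 415 in the untreated and 1417, 871 and 949 in the OHT-treated PRC1CPM libraries. Its rises were 1.34 ± 0.25 (adjusted p = 3.16e-05) and 1.27 ± 0.25 (adjusted p = 0.000114), again with no overlap. *Tgfbr1*, the type I TGF-beta receptor, read 3493, 2373 and 2286 in the untreated and 4377, 4342 and 4151 in the OHT-treated PRC1CKO libraries and 2952, 2740 and 2449 in the untreated and 4344, 3226 and 3886 in the OHT-treated PRC1CPM libraries. It rose by 0.69 ± 0.21 in PRC1CKO (adjusted p = 0.011), a call lost without OHT-treated replicate 1 or untreated replicate 2 or 3 of that line (range 0.57 to 0.88), under TMM and without the gDNA-seq correction, and gave 0.49 ± 0.21 in PRC1CPM (adjusted p = 0.119). The noncoding Gm32435 covers 53.3% of its body.

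The remaining receptors, *Bmpr2*, *Acvr1*, *Acvr2a* and *Acvr2b*, are used by BMP and activin ligands and were expressed in every library at 754 to 5002 normalised reads. None passed the test in either line. Treated and untreated libraries of each line did not overlap for *Bmpr2*, *Acvr2a* and *Acvr2b*, the last with lower treated levels. Of all transcripts, 22.1% in PRC1CKO and 18.7% in PRC1CPM were likewise higher without overlap, and 8.52% and 3.7% lower. The log2 fold changes of these receptors lay between -0.33 (*Acvr2b*) and 0.38 (*Acvr2a*) in PRC1CKO, and between -0.37 (*Acvr2b*) and 0.40 (*Bmpr2*) in PRC1CPM. The widest of their intervals of 95% confidence ran from -0.15 to 0.80 (*Acvr1* in PRC1CKO) and from -0.14 to 0.81 (*Acvr1* in PRC1CPM), so a doubling lay outside them.

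**Figure D4:**
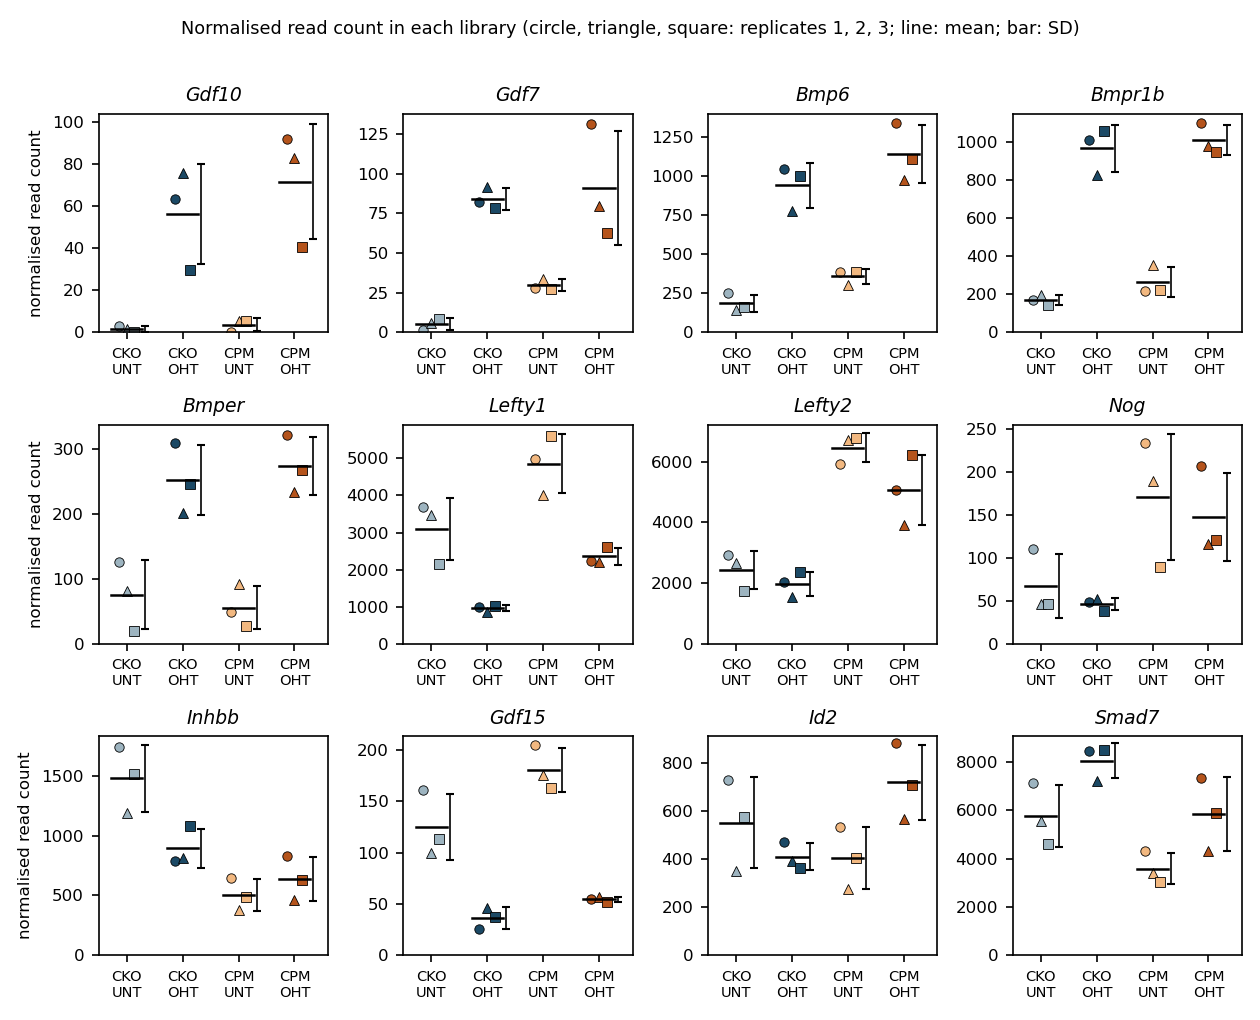
Normalised read count (vertical, from 0) of 12 of the genes in each library, with circle, triangle and square for replicates 1, 2 and 3, a line for the mean and a bar for the SD of the 3 replicates. In the OHT-treated conditions of both lines *Gdf10*, *Gdf7*, *Bmp6*, *Bmpr1b* and *Bmper* lie above the untreated ones and *Lefty1* and *Gdf15* below, while *Lefty2* and *Nog* are higher in PRC1CPM with or without OHT.

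The feedback genes are switched on by the pathway and dampen it or act downstream. *Smad6*, an inhibitory SMAD of the BMP branch, rose in both lines. It read 630.1, 410.2 and 541 in the untreated and 1344, 820.1 and 1314 in the OHT-treated PRC1CKO libraries and 644, 228 and 542 in the untreated and 1205, 574 and 832 in the OHT-treated PRC1CPM libraries. The conditions were apart in PRC1CKO (1.12 ± 0.29, adjusted p = 0.00239) and overlapped in PRC1CPM, where untreated replicate 1 lay above treated replicate 2 (0.95 ± 0.29, adjusted p = 0.0155). *Smad7*, the inhibitory SMAD of both branches, read 7141, 5546 and 4600 in the untreated and 8467, 7234 and 8494 in the OHT-treated PRC1CKO libraries and 4309, 3415 and 3038 in the untreated and 7344, 4305 and 5902 in the OHT-treated PRC1CPM libraries. It passed in PRC1CPM (0.69 ± 0.21, adjusted p = 0.0173) and not in PRC1CKO (0.50 ± 0.21, adjusted p = 0.0893). Calls in PRC1CPM were lost without OHT-treated replicate 1 or untreated replicate 2 for *Smad6* (range 0.49 to 1.24), and without untreated replicate 3 or OHT-treated replicate 1 or 3 for *Smad7* (0.51 to 0.89). *Smad6* also lost its call there under DESeq2 and without a filter, and *Smad7* under TMM.

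The Id genes code for inhibitors of basic helix-loop-helix factors. *Id2* read 728, 352 and 578 in the untreated and 472, 393 and 363 in the OHT-treated PRC1CKO libraries, with overlap, and 536, 275 and 403 in the untreated and 882, 569 and 709 in the OHT-treated PRC1CPM libraries, without. It rose in PRC1CPM (0.86 ± 0.27, adjusted p = 0.0209) and gave -0.38 ± 0.27 in PRC1CKO (adjusted p = 0.411). The rise lost its call without untreated replicate 2 or 3 or OHT-treated replicate 1 or 3 of PRC1CPM (range 0.61 to 1.09). *Id1* read 468, 189 and 203 in the untreated and 376, 257 and 308 in the OHT-treated PRC1CKO libraries and 371, 214 and 191 in the untreated and 605, 336 and 391 in the OHT-treated PRC1CPM libraries. *Id1* passed in neither line (0.24 ± 0.30 and 0.79 ± 0.30, adjusted p = 0.694 and 0.0735), though with the block it passed in PRC1CPM (adjusted p = 4.43e-05). *Id3* read 453, 291 and 169 in the untreated and 522, 384 and 399 in the OHT-treated PRC1CKO libraries and 435, 273 and 252 in the untreated and 576, 363 and 565 in the OHT-treated PRC1CPM libraries. Its changes were nearly equal in the lines (0.61 ± 0.29 and 0.66 ± 0.29) and did not pass (adjusted p = 0.15 and 0.14), and with the block *Id3* passed in PRC1CPM (adjusted p = 0.000528). *Id4* gave 0.79 ± 0.32 and 0.35 ± 0.32 (adjusted p = 0.0786 and 0.639), and 45.9% of its body overlaps the noncoding A330033J07Rik.

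The lines were then compared directly, which sets cells with inactive PRC1 against cells without it. After OHT, 3 of the 43 genes were higher in PRC1CPM than in PRC1CKO and none lower, beside 1.25% higher and 0.218% lower among all transcripts. These were the antagonists *Lefty1*, *Lefty2* and *Nog*. *Lefty1* was 2.45-fold higher in OHT-treated PRC1CPM (1.29 ± 0.22, adjusted p = 0.000127), and *Lefty2* 2.56-fold (1.36 ± 0.22, adjusted p = 6.23e-05). *Nog*, which binds and blocks BMP ligands, read 110.2, 46.2 and 45.7 in the untreated and 48.8, 51.8 and 38.4 in the OHT-treated PRC1CKO libraries. In PRC1CPM it read 233, 188 and 89.5 before and 207, 116 and 120.5 after. The OHT-treated lines did not overlap for *Nog* (1.61 ± 0.37, adjusted p = 0.0107). Of all transcripts, 11.9% were higher in OHT-treated PRC1CPM without overlap and 4.35% lower. With the replicate block, *Gdf3* (0.74, adjusted p = 4.84e-06) and *Id2* (0.80, adjusted p = 1.72e-05) were also higher, which makes 5, beside 6.68% of all transcripts higher with the block. Leaving out 1 library gave counts from 2 to 4, and *Nog* lost its call without OHT-treated replicate 1 of PRC1CPM or replicate 3 of PRC1CKO (range 1.34 to 1.76), and without a filter. At an unadjusted p under 0.05, 7 of the 43 genes passed in either direction, beside 1862 of all 16940 transcripts, and edgeR and DESeq2 also called none lower.

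Differences between the lines were also seen before OHT. In untreated cells, *Lefty2* (1.44 ± 0.22, adjusted p = 1.68e-05), *Nog* (1.34 ± 0.37, adjusted p = 0.0346), *Bmp6* (0.98 ± 0.25, adjusted p = 0.0202) and *Gdf7* (2.47 ± 0.45, adjusted p = 0.000463) were higher in PRC1CPM, and *Inhbb* was lower (-1.57 ± 0.25, adjusted p = 3.93e-05). That is 4 genes higher (9.3%) and 1 lower (2.33%) of 43, beside 2.21% and 0.478% of all transcripts. The untreated libraries of the lines did not overlap for *Lefty2*, *Bmp6*, *Gdf7* or *Inhbb*. They did for *Nog*, whose PRC1CKO replicate 1 (110.2) was above PRC1CPM replicate 3 (89.5). Of all transcripts, 9.23% were higher in untreated PRC1CPM without overlap and 2.55% lower. *Lefty1* gave 0.68 ± 0.22 (adjusted p = 0.076). With the replicate block 9 were higher and 2 lower, beside 9.63% and 1.49% of all transcripts, the added ones being *Bmp2* (adjusted p = 0.00171), *Gdf3* (3.81e-05), *Lefty1* (8.3e-06), *Bmpr1b* (0.00185) and *Grem1*, for which no test is given as it rests on 10 and 24 untreated reads, and *Smad7* among the lower (8.53e-06). The higher count was 8 without untreated PRC1CKO replicate 1 and 2 without untreated PRC1CKO replicate 2 or 3 or untreated PRC1CPM replicate 1. In this order, 8.81%, 1.29%, 1.0% and 1.23% of all transcripts were higher in these fits. The lower count was 2 without untreated replicate 1 or OHT-treated replicate 1 or 2 of PRC1CPM. Of all transcripts, 94, 105 and 95 were lower there, against 81 with all libraries. *Nog* lost its call without untreated replicate 2 or 3 of PRC1CKO or untreated replicate 1 or 2 of PRC1CPM (range 1.06 to 1.76), and *Bmp6* without untreated replicate 2 or 3 of PRC1CKO or untreated replicate 1 or 3 of PRC1CPM (0.83 to 1.21). Both also lost it without the gDNA-seq correction, *Nog* without a filter and with a pseudocount of 0.1, and *Bmp6* with the 6 libraries alone. These comparisons share libraries with those of OHT, so they are not separate evidence. Markers of endoderm and of fibroblasts also differed between the lines, with and without OHT, as given below.

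The lines also differed by chromosome, and this moves with some of these genes. The median log2 difference between the untreated lines was 0.45 on chromosome 11, where *Nog* lies, and 0.31 on chromosome 6, where *Gdf3* lies, against 0.12 for all transcripts; after OHT these medians were 0.42, 0.30 and 0.10. On chromosome 1, which holds *Lefty1*, *Lefty2* and *Inhbb*, the median was -0.10 in untreated and -0.16 in OHT-treated cells. The differences of *Lefty1* and *Lefty2* therefore ran against the median of their chromosome, and those of *Nog* and *Inhbb* ran with it and exceeded it. The part of these chromosome medians in the difference of a single gene was not tested.

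**Figure D5:**
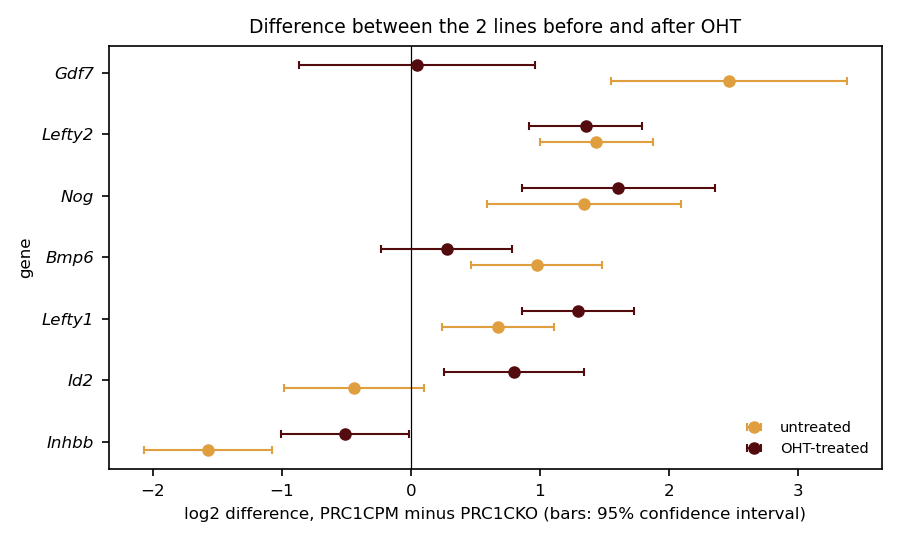
Log2 difference between PRC1CPM and PRC1CKO (horizontal) in untreated (light) and OHT-treated (dark) cells for the genes that passed a test between the lines or, with the replicate block, the interaction, with 95% confidence intervals as bars. *Lefty2* and *Nog* lie right of 0 in both states, *Gdf7* and *Bmp6* lie near 0 only after OHT, and *Id2* crosses from -0.44 to 0.80.

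Whether OHT acted unequally in the lines was asked with the interaction of line and treatment. None of the 43 genes passed (limma, adjusted p under 0.05), beside 0.0% higher and 0.0236% lower of all transcripts; edgeR and DESeq2 also called none, and 5 of the 43 had an unadjusted p under 0.05, beside 497 of all 16940 transcripts (2.93%). With the replicate number as a block, *Gdf7*, *Id2*, *Inhbb* and *Lefty1* passed (adjusted p = 0.000376, 1.36e-05, 7.02e-05 and 0.0445), beside 0.46% of all transcripts higher and 1.45% lower with the block, although the pairing did not meet its limit in PRC1CKO. The widest of these differences was that of *Gdf7*, whose rise was smaller in PRC1CPM by 2.42 ± 0.64 on the log2 scale (adjusted p = 0.366), with treated levels alike (0.05 ± 0.45 between the OHT-treated lines) and unequal untreated levels. *Id2* gave 1.24 ± 0.38 (adjusted p = 0.653) and *Inhbb* 1.06 ± 0.35 (adjusted p = 0.796). For *Bmper*, which rose in both lines, the interval of 95% confidence of the difference between its rises ran from -0.76 to 1.54, so with 3 replicates a rise larger by 2-fold in PRC1CPM lay within it. For *Tgfbr3* and *Bmpr1a* it ran from -0.77 to 0.64 and -0.65 to 0.50.

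Beyond the chosen genes, a wider list of the pathway was read in the same way. Of 23 tested extracellular components, 9 rose (39.1%) and 1 fell in PRC1CKO, and 7 rose (30.4%) and 2 fell in PRC1CPM, beside 16.5% and 13.1% of all transcripts higher. Of these, *Sost* passed the limit on reads only through treated libraries. *Gdf1*, a ligand that shares its locus with Cers1, was among the fallers in both lines (-1.14 ± 0.26 and -1.06 ± 0.26, adjusted p = 0.000664 and 0.00238). The BMP antagonist *Chrdl1* (26.6 to 192 on average in PRC1CKO, and 29.8 to 204 in PRC1CPM) rose by 2.96 ± 0.38 (adjusted p = 1.2e-08) and 2.78 ± 0.38 (adjusted p = 1.46e-07). The tolloid-like protease *Tll1*, of a family that cleaves chordin, rose by 2.62 ± 0.31 (adjusted p = 2.31e-09) and 1.92 ± 0.31 (adjusted p = 6.39e-06). *Inhbe*, an inhibin subunit, reached 10 reads only in the untreated PRC1CPM libraries and so could only be lower elsewhere, so its means are given with no test, 25.4 in untreated and 2.19 in treated PRC1CPM and 3.24 and 1.19 in PRC1CKO.

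Among 8 tested receptors and co-receptors of the wider list, 2 were higher in each line (25.0%) and none lower, beside 16.5% and 13.1% of all transcripts higher. Both counts include the activin-type receptor *Acvr1c*, which passed the limit on reads only through treated libraries and so had to be higher there. It is given with no test, at means of 2.02 and 2.44 before and 26.1 and 33.9 after OHT in PRC1CKO and PRC1CPM. Without it, only *Rgma* was higher in PRC1CKO and only *Acvrl1* in PRC1CPM. *Acvrl1* rose in PRC1CPM (0.97 ± 0.31, adjusted p = 0.0207) and gave 0.75 ± 0.31 in PRC1CKO (adjusted p = 0.0795), and the BMP co-receptor *Rgma* rose in PRC1CKO (0.92 ± 0.29, adjusted p = 0.0165) and gave 0.44 ± 0.29 in PRC1CPM (adjusted p = 0.421). Of the 15 intracellular components, 2 were higher (13.3%) and 1 lower in PRC1CKO and 1 higher (*Pmepa1*, 6.67%) in PRC1CPM, so the shares higher lay below and the share lower in PRC1CKO (6.67%) above those of all transcripts, with medians of 0.15 and 0.11, close to those of all transcripts. *Smad9* (0.96 ± 0.35, adjusted p = 0.0478) and the Nodal cofactor *Foxh1* (0.75 ± 0.28, adjusted p = 0.0494) rose and the SMAD repressor *Skil* fell (-0.79 ± 0.22, adjusted p = 0.00553) in PRC1CKO.

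Several of the genes are also expressed by differentiating cells, and markers of such cells moved in the same libraries. Of 8 tested markers of primitive and visceral endoderm, 4 rose (*Gata4*, *Gata6*, *Sox17* and *Pdgfra*) and 1 fell (*Cubn*) in PRC1CKO. In PRC1CPM 6 rose, the same 4 with *Sox7* and *Dab2*. Beside these counts and those of the other markers below, 16.5% of all transcripts were higher and 3.09% lower in PRC1CKO. In PRC1CPM these shares were 13.1% and 1.4%. With the replicate block *Cubn* was lower in PRC1CPM too (adjusted p = 6.98e-07). *Gata6* rose by 2.96 ± 0.32 (adjusted p = 1.2e-10) and 2.26 ± 0.32 (adjusted p = 2.91e-07), while *Afp* and *Ttr* were at or near 0 (at most 6.57 normalised reads). Between the OHT-treated lines *Gata6* (-1.78 ± 0.32, adjusted p = 0.000388) and *Pdgfra* (-1.04 ± 0.29, adjusted p = 0.0458) were lower in PRC1CPM. Between the untreated lines *Sox7* (-2.26 ± 0.42, adjusted p = 0.000513) and *Cubn* (-1.62 ± 0.39, adjusted p = 0.0107) were lower there. The block added *Gata4* (adjusted p = 0.000365) in treated cells, and *Gata6* (4.52e-07) and *Pdgfra* (2.57e-05) in untreated ones. Summed over the 10 genes, whose most abundant was *Lama1*, the untreated libraries read 10780, 6290 and 4940 in PRC1CKO and 6479, 5068 and 5919 in PRC1CPM, and the treated ones 9509, 7226 and 6938, and 7810, 4715 and 7086, so the sums overlapped. Of 5 tested mesendoderm markers 3 rose in PRC1CKO (T, *Eomes* and *Foxa2*) and 4 in PRC1CPM (these and *Gsc*), of which *Foxa2* and *Gsc* passed the limit on reads only with treated libraries, and their sum over 6 genes, led by *Eomes*, went from 283, 111 and 102 to 593, 388 and 444 in PRC1CKO and from 279, 131 and 129 to 629, 299 and 497 in PRC1CPM, with no overlap in either line. Fibroblast markers were read too, although the cells were grown on gelatin. They were present and uneven between the lines, with a sum of 9960, 4719 and 5703 in untreated and 7704, 6492 and 7173 in treated PRC1CKO, and 19320, 6509 and 7549 and then 19110, 7399 and 9533 in PRC1CPM. *Col1a1*, the most abundant of them, was higher in OHT-treated PRC1CPM than in PRC1CKO (1.44 ± 0.36, adjusted p = 0.0203). Between the untreated lines *Col1a2* was higher in PRC1CPM (1.38 ± 0.32, adjusted p = 0.0081), while *Lum* and *Dcn* did not exceed 15.3 normalised reads. Of these 6 markers, *Thy1* rose in PRC1CKO and *Postn* was lower there, although *Postn* reached 10 reads in 5 untreated libraries and only 1 treated one and so passed the limit through the untreated libraries, and none passed in PRC1CPM after OHT (limma; *Col1a2* came nearest there, with -0.81 ± 0.32 and adjusted p = 0.0881). With the replicate block *Col1a2* fell there (adjusted p = 5.94e-07). The share of the 6 fibroblast markers higher in PRC1CKO, *Thy1* alone, was 16.7%, close to that of all transcripts. The part of such cells in the changes of the signalling genes, and in their differences between the lines, was not tested.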

How the data were processed

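The 12 cRNA-seq libraries of the 2 lines were assigned to conditions from their titles, and 12 gDNA-seq libraries carry no values here. The authors discarded rDNA reads with Bowtie 2, used STAR, followed by Bowtie 2 for what STAR had not placed, on a concatenated mm10 and dm6 genome, discarded multi-mapping reads and, with Sambamba, PCR duplicates, and counted reads over gene bodies of 20633 transcripts. The authors' deposited signal is this count divided by a DESeq2 size factor from Drosophila reads, corrected by the matched gDNA-seq. Whether the counts used the strand of this directional kit is not given in the sources used here. The deposited table also holds the authors' log2 fold changes and adjusted p-values for OHT in each line, the treated lines and the interaction, and a second file lists partially derepressed genes; none of these was used. The table also gives the length of each gene body, which was used for values per kb.

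In every library 100% of the deposited values were whole reads within 0.02 of a read, once divided by the value of 1 read. A limit of 10 reads in 3 or more libraries left 16940 transcripts. For these, limma 3.58.1 (R 4.3.3) estimated a mean for each condition from log2(normalised read count + 1), without a block and with its trend option, and p-values were adjusted by Benjamini-Hochberg over all transcripts. A call required adjusted p below 0.05 together with a change of more than 1.5-fold, except for the interaction, where the adjusted p alone decided. The replicates are separate samples by their labels, and p-values measure the spread between them. Within conditions, read counts of replicates differed by a chi-square of 7.78 to 26.5 per degree of freedom, so no library was counted as a repeat of another.

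Same-numbered libraries deviated together from their condition means in PRC1CPM (correlations from 0.25 to 0.44), between treated lines (0.14 to 0.23) and between untreated lines (0.19 to 0.38), and in PRC1CKO from 0.099 to 0.18, with 1 pair under the limit of 0.1. The pairing comes from these values, not from the labels. Values with the replicate number as a block are therefore given beside the first 3 comparisons where they change a call.

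On simulated data for PRC1CKO, the fit recovered 46 of 100 transcripts changed 2-fold and 88 of 100 changed 4-fold, with 10 false calls, among 16219 tested. The alternatives were edgeR 4.0.16 and DESeq2 1.42.0 on the recovered reads, TMM, the spike-in scale without the gDNA-seq correction, no filter, a pseudocount of 0.1, the replicate block, the 6 libraries of each comparison alone, and each library left out.

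The genes and lists were chosen with earlier results of these data known. Every chosen gene could be named, values in each library are given for those called in any comparison and for those among the 10 highest per kb, and of the wider pathway lists the 3 largest changes among genes called after OHT are named. Markers and pathway genes named beyond these (*Gdf1* and *Pmepa1*) were chosen after their values were seen. Counts over genes that pass the limit on untreated libraries alone were added after the values were seen. A list of neural markers is not reported here. Sequences are those of RefSeq on GRCm38.p6, and positions start from 1. Summaries and plots were made in Python 3.11.15 (pandas 2.3.3, numpy 2.4.6, matplotlib 3.10.9, scipy 1.17.1).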

Additional observations from a re-analysis of the deposited data

Results flagged for a closer look

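With the replicate number as a block, the change after OHT differed between the lines for 4 of the 43 tested genes, and for none without it. *Gdf7* rose less in PRC1CPM, by a difference of -2.42 on the log2 scale (adjusted p = 0.000376 with the block and 0.366 without). *Id2* gave 1.24 (adjusted p = 1.36e-05 and 0.653), with a lower mean after OHT in PRC1CKO and a higher one in PRC1CPM. *Inhbb* gave 1.06 (adjusted p = 7.02e-05 and 0.796), in the same pattern. *Lefty1* gave 0.62, as its fall was smaller in PRC1CPM (adjusted p = 0.0445 and 1.0). With the block, 78 of all 16940 transcripts passed with a positive and 246 with a negative difference. No gene was marked for a library far from the others of its group, since groups of 3 are not tested for that.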

How the results depend on the processing

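No called change of the 43 genes turned its direction under any of the 8 alternatives or any of the 12 fits that leave out 1 library. For the wider pathway genes and markers, the replicate block was the one alternative read. Calls kept under all 8 alternatives and all 12 such fits were 16 of 24 in PRC1CKO, 9 of 19 in PRC1CPM, 2 of 3 between the treated lines and 3 of 5 between the untreated lines. Without *Bmp3*, *Gdf10* and *Grem1*, which passed the limit on reads only through treated libraries, these were 15 of 21 in PRC1CKO and 8 of 17 in PRC1CPM. Where a call of these genes was lost (4 calls under TMM, 5 under DESeq2, 3 under edgeR, 8 without a filter, 8 without the gDNA-seq correction, 4 with a pseudocount of 0.1, 3 with the 6 libraries alone, with *Grem1* among those under DESeq2 and edgeR and *Bmp3* among those with the pseudocount), the cause was not tested. The count higher between the treated lines went from 3 to 5 under TMM, without the gDNA-seq correction, with the replicate block and with the 6 libraries alone, and the count lower from 0 to 2 under TMM. Between the untreated lines the count higher went from 4 to 2 without the gDNA-seq correction and to 9 with the replicate block, and the count lower from 1 to 2 under TMM, without the gDNA-seq correction and with the block. The interaction went from 0 to 4 with the replicate block. In PRC1CKO, where the pairing did not pass its check, the block gave 24 higher and 4 lower, with *Gdf11*, *Tgfb3*, *Id3* and *Id4* added, beside 20.3% and 4.86% of all transcripts. Leaving out 1 library gave 14 to 23 higher and 3 to 4 lower in PRC1CKO, 7 to 20 and 2 to 3 in PRC1CPM, 2 to 4 and 0 to 0 between the treated lines, 2 to 8 and 1 to 2 between the untreated lines, and 0 to 0 for the interaction. Over these fits the share of all transcripts higher ran from 11.9% to 22.0% in PRC1CKO and from 8.49% to 15.0% in PRC1CPM. It ran from 0.478% to 2.36% between the treated lines and from 1.0% to 8.81% between the untreated lines. Scaling moved the median of all transcripts from 0.12 to -0.0019 in PRC1CKO and from 0.10 to -0.0072 in PRC1CPM under TMM, and to -0.037 and 0.39 without the gDNA-seq correction, where 15 and 23 genes were higher and the untreated lines had 50.0% of their calls higher against 80.0%. Relative to all transcripts the median of the 43 genes, with *Bmp3*, *Gdf5*, *Gdf10* and *Grem1* included, stayed at 0.57 in PRC1CKO under TMM and without that correction. Among all transcripts, the calls lower in PRC1CKO and PRC1CPM were 524 and 237, and 1133 and 595 under TMM, 823 and 461 with the block, and 666 and 68 without the gDNA-seq correction, where the calls higher in PRC1CPM were 3428 against 2226. Between the treated lines, 212 higher and 37 lower became 524 and 261 under TMM, 1131 and 232 with the block, 441 and 21 without the gDNA-seq correction, 551 and 141 with the 6 libraries alone, 345 and 85 under DESeq2, 268 and 59 under edgeR, and 136 and 21 without a filter, and 24 were lower with a pseudocount of 0.1. Between the untreated lines, 374 and 81 became 745 and 305 under TMM, 1631 and 253 with the block, 130 and 148 without the gDNA-seq correction, and 228 and 47 with the 6 libraries alone, and 243 were higher without a filter. The interaction had 4 lower, and 78 higher and 246 lower with the block, 15 lower under DESeq2, 14 under TMM, 1 with a pseudocount of 0.1, 0 without a filter, and 2 higher and 1 lower without the gDNA-seq correction. Depth limits *Bmp3*, *Gdf5*, *Gdf10* and *Grem1*, whose untreated levels rest on a few reads.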
